A study of Mus musculus with 6 samples.

Results

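Phosphatidylcholine and choline metabolism was examined in mouse liver through 10 genes, Pemt, Chka, Chkb, Pcyt1a, Pcyt2, Cept1, Chdh, Lpcat3, Etnk2 and Pisd. The genes were chosen by name, each as the row whose Ensembl mouse gene ID maps to the symbol. All 10 were found among the 49671 gene IDs of the count table, and all 10 were among the 16089 genes with enough counts to be tested.

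RNA-seq was performed on liver tissue of 6 male mice of the C57BL/6 J background, 3 per genotype, with each liver sequenced as its own library. The mice were fasted before the tissue was taken. The control mice, labelled WT, carried floxed Shmt2 alleles without Cre and are called SHMT2 fl/fl, and the SHMT2 HKO mice, labelled KO, carried the same floxed alleles and an Albumin-Cre transgene, which drives recombination in hepatocytes. Cre was therefore present in HKO mice only, and any effect of Cre itself cannot be told apart from loss of Shmt2, the gene of the mitochondrial serine hydroxymethyltransferase. Both genotypes were weaned at 3 weeks, were switched at 4 weeks to the AMLN diet, which combines fat, fructose and cholesterol to produce fatty liver, stayed on it for 18 weeks, and were 22 weeks old at the end. There was no chow-fed group among these libraries, so the values say nothing of the diet.

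Phosphatidylcholine is the main phospholipid of hepatocyte membranes, of the surface of secreted lipoproteins and of bile. Most cells make it by the CDP-choline pathway, in which choline is phosphorylated, activated with CTP and joined to diacylglycerol, and a parallel set of steps makes phosphatidylethanolamine from ethanolamine. Liver has a further route, in which PEMT methylates phosphatidylethanolamine with methyl groups from S-adenosylmethionine (SAM). Choline that is not used for phospholipid can be oxidised to betaine, which returns a methyl group to homocysteine, so the pathway is joined to one-carbon metabolism at both ends.

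The libraries held 23090837 to 34089722 counts on genes. Values are given as CPM, counts scaled to the size of the library, after TMM scaling, which sets the libraries against each other through the bulk of their genes. Genotypes were compared with the quasi-likelihood test of edgeR, and p-values were adjusted by Benjamini-Hochberg over all 16089 genes. Shmt2 itself stood at 94.6, 109 and 93.9 CPM in the fl/fl livers and at 24.9, 28.3 and 19.3 CPM in the HKO livers, a log2 fold change of -2.04 (adjusted p = 0.000639), so every library matched its label. HKO 1 stood apart from HKO 2 and HKO 3 on the second principal component, and HKO 3 lay nearest to the fl/fl livers on the first. The labels do not say whether the livers were processed together, and a batch could not be separated.

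The DNA just upstream of the genes is shown first, because it holds the letters through which known lipid and housekeeping factors can bind. RefSeq promoter windows on GRCm38.p6 were found for 9 of the 10 genes, 17 windows in all, and none was found for Pcyt2. In the 250 bases upstream of each start, 6 sets of letters were searched on both strands. They were the sterol element TCACCCCAC, the GC box GGGCGG, the CCAAT box CCAAT, the E-box CACGTG, the TATA box TATAAA and the DR4 repeat of nuclear receptors, and none of these letter sets contains another. Pemt, Chka and Lpcat3 are printed as genes whose RNA differed between genotypes, and Pcyt1a as the one gene with the sterol element, from 5′ to 3′ in the direction of transcription, with capitals marking a sterol element, GC box or CCAAT box on either strand.
Pemt, chr11:60040189-60040438, minus strand: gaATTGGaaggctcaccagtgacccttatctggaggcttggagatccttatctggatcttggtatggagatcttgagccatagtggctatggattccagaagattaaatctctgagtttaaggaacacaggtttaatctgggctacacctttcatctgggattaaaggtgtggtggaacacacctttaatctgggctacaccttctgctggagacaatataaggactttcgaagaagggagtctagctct
Chka, chr19:3851523-3851772, plus strand: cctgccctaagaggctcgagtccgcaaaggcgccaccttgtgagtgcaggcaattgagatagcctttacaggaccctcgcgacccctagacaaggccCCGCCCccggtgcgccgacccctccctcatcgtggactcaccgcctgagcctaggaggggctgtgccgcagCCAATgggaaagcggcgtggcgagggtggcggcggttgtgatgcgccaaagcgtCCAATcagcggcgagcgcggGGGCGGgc
Pcyt1a, chr16:32430671-32430920, plus strand: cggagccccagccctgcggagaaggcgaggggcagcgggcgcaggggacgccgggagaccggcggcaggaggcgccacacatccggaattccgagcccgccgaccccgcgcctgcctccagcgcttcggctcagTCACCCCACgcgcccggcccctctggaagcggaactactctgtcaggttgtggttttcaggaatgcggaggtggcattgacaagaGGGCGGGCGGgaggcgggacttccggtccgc
Lpcat3, chr6:124662854-124663026, plus strand: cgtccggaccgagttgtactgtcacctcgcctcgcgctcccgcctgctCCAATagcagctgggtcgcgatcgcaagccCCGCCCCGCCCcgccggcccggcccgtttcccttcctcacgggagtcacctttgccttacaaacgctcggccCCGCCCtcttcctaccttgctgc

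The windows of Chka, Pcyt1a and Lpcat3 were rich in G and C, at 68.0%, 71.6% and 68.8%, whereas the Pemt window held 44.8% and no GC box. The Chka window had 2 CCAAT boxes and 2 GC boxes. The Chkb window had 2 CCAAT boxes and 1 GC box, and is not printed because it lies within exons of C730034F03Rik. The Chka and Pcyt1a windows end at the annotated start of the gene, the Lpcat3 window is printed up to its first annotated exon (173 bases), and the Pemt window lies inside the gene, outside annotated exons and upstream of one of its 2 RefSeq starts. The sterol element, which binds the SREBP transcription factors in other promoters, occurred in 2 of the 17 windows, both of them overlapping windows of Pcyt1a. Over all 32851 windows it was found in 0.496%, the GC box in 32.7% and the CCAAT box in 33.8%. A GC box was present in 9 and a CCAAT box in 5 of the 17 windows. Overlapping windows of Pcyt1a, and of Cept1, share GC boxes, so some boxes entered this count more than once. These are matches of letters only, and binding was not measured.

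Of the 10 genes, 4 were higher and 1 was lower in HKO livers at an adjusted p under 0.05. Pcyt2, Pemt, Lpcat3 and Chkb rose, and Chka fell. When the libraries were scaled by spike-in RNA, none of these genes was called by edgeR. Pcyt2 was then at a log2 fold change of 0.14 (adjusted p = 0.807) and Chka at -1.27 (adjusted p = 0.0620). Pemt, Lpcat3 and Chkb turned direction, at -0.0081, -0.14 and -0.23, but were not distinguishable from 0. Over all genes tested, 29.0% were called, 12.5% higher and 16.5% lower. For 6 genes, 5 higher and 1 lower, all HKO values lay outside the fl/fl range on the same side, against 46.9% of all genes, 21.9% higher and 25.0% lower. With the cutoff used by the study (p under 0.05 and adjusted p under 0.25), 7 of the 10 genes passed, against 41.4% of all genes. The median log2 fold change of the 10 genes was 0.37, and that of all genes was 0.03.

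**Figure D1:**
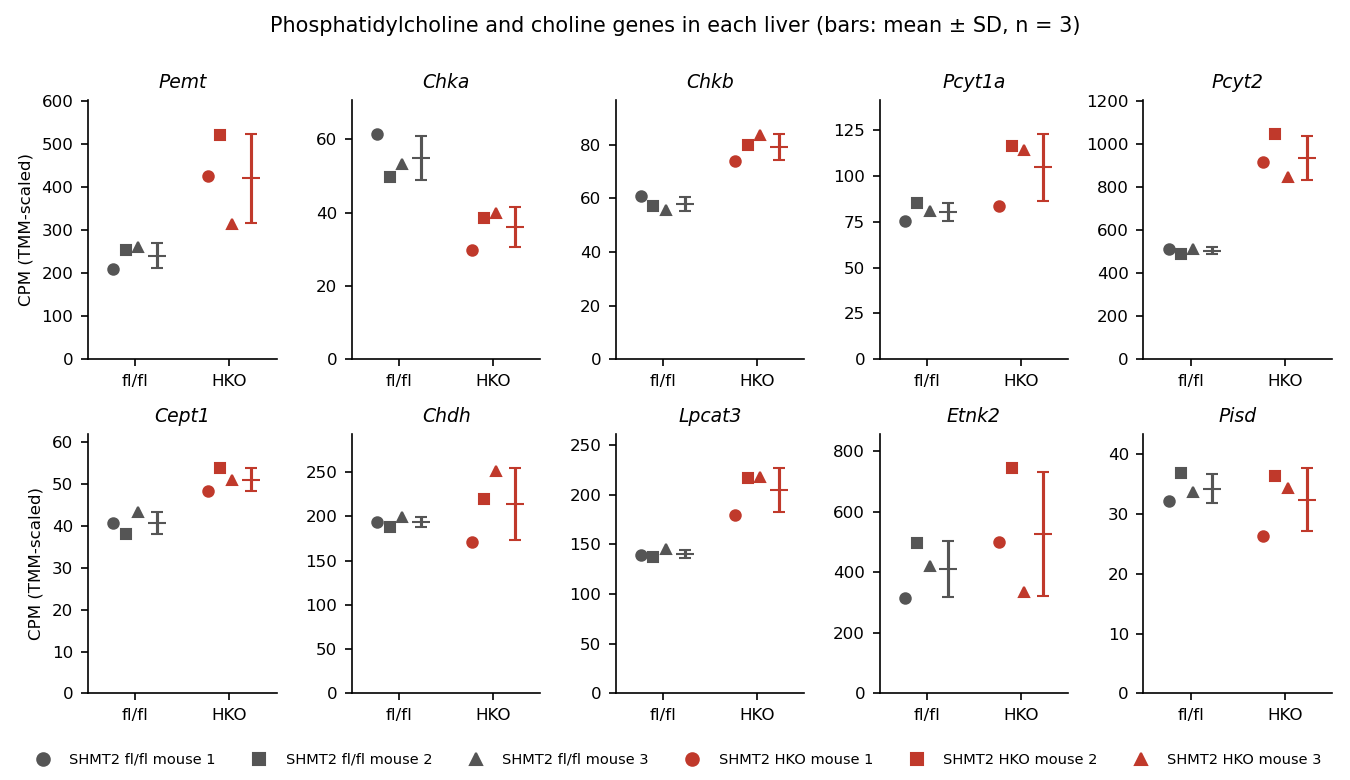
Each panel plots one gene, with TMM-scaled CPM on a linear axis from 0 for the 3 SHMT2 fl/fl and 3 SHMT2 HKO livers. Points are single livers, and the bars give the mean and SD. The groups are separate for Pcyt2, Pemt, Lpcat3, Chkb, Cept1 and Chka, with Chka the one of these lower in HKO livers, and overlap for Pcyt1a, Chdh, Etnk2 and Pisd.

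PEMT carries out all methylation steps from phosphatidylethanolamine to phosphatidylcholine in liver. Pemt (ENSMUSG00000000301, chr11:59970614-60046489) stood at 208, 254 and 260 CPM in fl/fl livers and at 424, 520 and 314 CPM in HKO livers. Every HKO liver was above every fl/fl liver, and HKO 3 was the lowest of its group. The means were 240 ± 28.1 and 419 ± 103 CPM (SD, n = 3 each), a 1.74-fold difference of means, and the log2 fold change was 0.80 ± 0.20 (SE, adjusted p = 0.0215). The call was lost, at adjusted p = 0.0647 to 0.0879, when fl/fl 1, fl/fl 2, fl/fl 3 or HKO 2 was left out, with the log2 fold change between 0.62 and 0.86.

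With TMM scaling the choline kinases moved in opposite directions. Both enzymes phosphorylate choline, the first step of the CDP-choline pathway, and are encoded by separate genes. Chka (ENSMUSG00000024843, chr19:3851773-3894369) was measured at 61.5, 49.8 and 53.3 CPM in fl/fl livers and at 29.8, 38.7 and 40.0 CPM in HKO livers, so that the groups did not overlap and HKO 1 was the lowest. Its means were 54.9 ± 6.03 and 36.2 ± 5.51 CPM (SD, n = 3 each), and its log2 fold change was -0.60 ± 0.15 (SE, adjusted p = 0.0190).

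Chkb (ENSMUSG00000022617, chr15:89426360-89429908), the other kinase, had 60.9, 57.2 and 55.6 CPM in fl/fl livers and 74.1, 79.8 and 83.8 CPM in HKO livers. The HKO livers were all above the fl/fl livers, with a log2 fold change of 0.45 ± 0.11 (SE, adjusted p = 0.0173). This rise depended on the scaling. By edgeR the Chkb log2 fold change was 0.033 without TMM (adjusted p = 0.882) and -0.23 with scaling by ERCC spike-in RNA (adjusted p = 0.721). Chka was at -1.02 (adjusted p = 0.00671) and -1.27 ± 0.51 (SE, adjusted p = 0.0620) in the same fits, so it was not called with ERCC scaling. The Chka call was lost without fl/fl 1 (adjusted p = 0.0758) or fl/fl 3 (0.0608), and the Chkb call without fl/fl 2 (0.0715), fl/fl 3 (0.0848) or HKO 2 (0.0503). Exons of Chkb share 320 bp with C730034F03Rik on the opposite strand, which had 34 to 66 counts per library, and the use of strand in counting was not given in the sources used here. Cpt1b, the neighbour of Chkb, was at 0.758 ± 0.0938 CPM in fl/fl and 1.68 ± 0.725 CPM in HKO livers (SD, n = 3 each, adjusted p = 0.0707).

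A ratio of counts within a library does not depend on how libraries are scaled. For every Chkb count the fl/fl livers held 1.01, 0.870 and 0.958 Chka counts, and the HKO livers 0.402, 0.485 and 0.477. Every HKO liver thus held fewer Chka counts per Chkb count than any fl/fl liver, and since Chka has the longer exons, its level per kilobase was below that of Chkb in both genotypes. The log2 ratio differed by -1.06 between genotypes, and the exact two-sided permutation test gave p = 0.1, the smallest that 3 livers against 3 allow (0.15 after Benjamini-Hochberg adjustment over 6 ratios). Chka made up 50.2%, 46.5% and 48.9% of the summed choline kinase counts in fl/fl livers and 28.7%, 32.6% and 32.3% in HKO livers. The summed level of both genes overlapped between genotypes, at 122, 107 and 109 CPM in fl/fl livers and 104, 119 and 124 CPM in HKO livers.

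The enzymes PCYT2 and PCYT1A activate the phosphorylated head groups with CTP, a step known to control the rate of each pathway. Pcyt2 (ENSMUSG00000025137, chr11:120610087-120617936), the enzyme of the ethanolamine branch, was at 513, 488 and 514 CPM in fl/fl livers and at 915, 1046 and 845 CPM in HKO livers. Every HKO liver lay well above the narrow fl/fl range. The means were 505 ± 14.7 and 935 ± 102 CPM (SD, n = 3 each), 1.85-fold apart, and the log2 fold change was 0.89 ± 0.15 (SE, adjusted p = 0.00484). It was the one gene of the 10 whose call held whichever liver was left out, at adjusted p = 0.0026 to 0.0319.

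Pcyt1a (ENSMUSG00000005615, chr16:32430921-32475070), the enzyme of the choline branch, was at 75.2, 85.0 and 80.7 CPM in fl/fl livers and at 83.4, 116 and 114 CPM in HKO livers. HKO 1 lay within the fl/fl range and the other HKO livers above it. Its log2 fold change of 0.38 (95% interval 0.03 to 0.73) did not pass the test at adjusted p = 0.0925, and did so at 0.0151 without HKO 1. Within a library there were 6.82, 5.74 and 6.36 Pcyt2 counts for every Pcyt1a count in fl/fl livers and 11.0, 9.01 and 7.40 in HKO livers. This ratio did not overlap between genotypes and was 1.43-fold higher in HKO livers (exact permutation p = 0.1, adjusted 0.15).

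Pemt set against Pcyt1a compares the methylation route with the choline route. The HKO livers held 5.09, 4.48 and 2.75 Pemt counts per Pcyt1a count, and the fl/fl livers 2.77, 2.98 and 3.21. HKO 3 lay below all fl/fl livers while HKO 1 and HKO 2 lay above them, and the log2 difference of 0.41 was within the spread of the libraries (exact permutation p = 0.4, adjusted 0.4).

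CEPT1 joins the activated head groups, choline or ethanolamine, to diacylglycerol. Cept1 (ENSMUSG00000040774, chr3:106502260-106547802) was at 40.8, 38.0 and 43.3 CPM in fl/fl livers and at 48.4, 53.8 and 51.1 CPM in HKO livers. The groups did not overlap, but the log2 fold change of 0.33 (95% interval 0.08 to 0.58) did not pass, with adjusted p = 0.0539. DESeq2 placed it at adjusted p = 0.0357. Dennd2d on the opposite strand, with 238 to 480 counts per library, shares 771 bp of the Cept1 exons, 24.7% of their length.

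Etnk2 and Pisd supply the phosphatidylethanolamine side, and neither passed the test. Etnk2 (ENSMUSG00000070644, chr1:133363572-133380336), an ethanolamine kinase known to be abundant in liver, varied widely, with 315, 497 and 420 CPM in fl/fl livers and 500, 743 and 335 CPM in HKO livers. Its groups overlapped and its log2 fold change was 0.36 (95% interval -0.32 to 1.03, adjusted p = 0.404). HKO 3 was within the fl/fl range and HKO 2 was the highest of all 6 livers. The log2 fold change was 0.025 without HKO 2 and 0.58 without HKO 3.

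Pisd (ENSMUSG00000023452, chr5:32736301-32785646) encodes the decarboxylase that makes phosphatidylethanolamine from phosphatidylserine in mitochondria. It was at 32.1, 36.8 and 33.6 CPM in fl/fl livers and at 26.4, 36.4 and 34.3 CPM in HKO livers, with only HKO 1 below the fl/fl range. The log2 fold change was -0.08 (95% interval -0.41 to 0.25, adjusted p = 0.713). Reads of Pisd may be split with its pseudogene copies, of which Pisd-ps1 was 11.4 ± 2.67 CPM in fl/fl and 7.18 ± 1.14 CPM in HKO livers (SD, n = 3 each, adjusted p = 0.0496) and Pisd-ps2 was under the filter. Pisd-ps3 was not analysed here. On the same strand, Gm20671 shares 1156 bp of the Pisd exons, 20.1% of their length, and Gm43695 shares 196 bp. Both had 0 counts in every library, and how reads in shared exons were assigned was not given in the sources used here.

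Pisd was also set against Pcyt2 within each library. There were 0.0627, 0.0755 and 0.0653 Pisd counts per Pcyt2 count in fl/fl livers and 0.0288, 0.0348 and 0.0406 in HKO livers, a log2 difference of -0.98 without overlap (exact permutation p = 0.1, adjusted 0.15). Pcyt2 was the gene of this pair that passed the test on its own. The Etnk2 to Pcyt2 ratio was 0.615, 1.02 and 0.817 in fl/fl livers and 0.547, 0.710 and 0.396 in HKO livers. These values overlapped through HKO 2 and fl/fl 1, and the log2 difference was -0.58 (exact permutation p = 0.2, adjusted 0.24).

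Choline dehydrogenase, encoded by Chdh, oxidises choline in mitochondria and starts its conversion to betaine. Chdh (ENSMUSG00000015970, chr14:30009023-30040527) was at 194, 188 and 199 CPM in fl/fl livers and at 171, 220 and 251 CPM in HKO livers. HKO 1 was below and the other HKO livers above all fl/fl livers. The log2 fold change was 0.15 (95% interval -0.22 to 0.51, adjusted p = 0.535), and it was -0.0070 without HKO 3. Cacna1d on the opposite strand, with 95 to 258 counts, shares 589 bp of the Chdh exons.

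The ratio of Chdh to Chka sets the first gene of choline oxidation against one of the choline kinase genes. It was 3.15, 3.77 and 3.74 in fl/fl livers and 5.74, 5.67 and 6.29 in HKO livers, so each HKO liver held more Chdh counts per Chka count than any fl/fl liver. The ratio was 1.67-fold higher (exact permutation p = 0.1, adjusted 0.15). Chka was the gene of this pair that passed the test on its own. Against Chkb the direction was the opposite, with a log2 ratio of Chdh to Chkb counts of 1.67, 1.71 and 1.84 in fl/fl livers and 1.21, 1.46 and 1.58 in HKO livers. Against the summed counts of both kinases the values overlapped, at 1.58, 1.75 and 1.83 in fl/fl livers and 1.65, 1.85 and 2.03 in HKO livers. These 2 further ratios were chosen after the values were seen and were not tested.

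LPCAT3 attaches polyunsaturated acyl chains to lysophosphatidylcholine. Lpcat3 (ENSMUSG00000004270, chr6:124663027-124704418) was at 139, 137 and 145 CPM in fl/fl livers and at 179, 217 and 218 CPM in HKO livers. The HKO livers were all above the narrow fl/fl range, and the log2 fold change was 0.54 ± 0.13 (SE, adjusted p = 0.0166). Leaving out fl/fl 1, fl/fl 2, fl/fl 3 or HKO 2 lost the call, at adjusted p = 0.0530 to 0.0753. Emg1 on the opposite strand, with 898 to 1733 counts, shares 334 bp of the Lpcat3 exons.

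**Figure D2:**
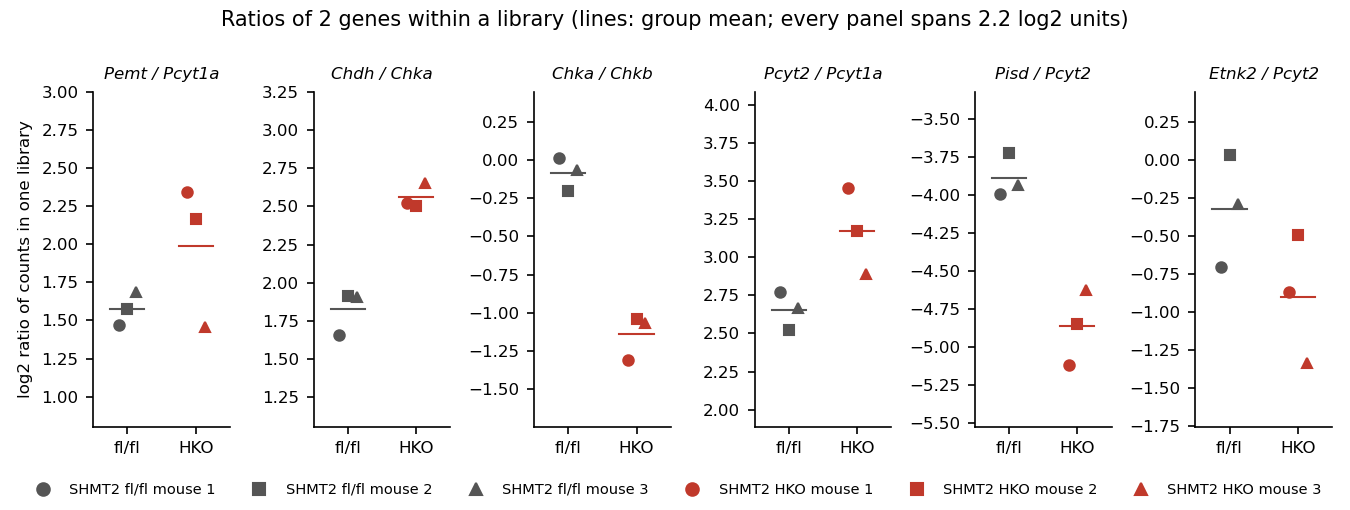
Log2 ratios of the counts of 2 genes in the same library are plotted for the 6 ratios tested, with 1 point per liver and a line at the mean of each genotype. The HKO livers are separate from the fl/fl livers for Chka/Chkb and Pisd/Pcyt2 (lower) and for Chdh/Chka and Pcyt2/Pcyt1a (higher), and overlap with them for Pemt/Pcyt1a and Etnk2/Pcyt2.

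Levels were compared between genes as CPM per kilobase of exon. In fl/fl livers the highest mean was that of Pcyt2 at 116 (SD 3.39, n = 3), followed by Pemt at 114 (SD 13.3, n = 3) and Etnk2 at 90.0 (69.0 to 109), so that Pcyt2 and Pemt overlapped, as did Pemt and Etnk2. Lpcat3 at 43.0, Chdh at 31.1, Chkb at 18.9, Cept1 at 13.1, Pcyt1a at 10.8, Pisd at 5.94 and Chka at 4.56 CPM per kilobase were each separate from the next. The order was the same in HKO livers, where Cept1 and Pcyt1a overlapped. The place of Chka as the lowest rests on its long exon union of 12024 bp, and it was 9 of 10 with the length of the longest transcript, with which Pcyt1a at 16.8 also lay above Cept1 at 14.5 CPM per kilobase.

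Chka, Pcyt2 and Pisd kept their direction under TMM, upper quartile, no TMM and ERCC scaling, and the direction of each of the other 7 genes turned under ERCC scaling, of Pcyt1a, Cept1, Chdh and Etnk2 also without TMM. The log2 fold change of Pcyt2 was 0.46 without TMM (adjusted p = 0.0224) and 0.14 ± 0.42 (SE, adjusted p = 0.807) with ERCC scaling, where it was not distinguishable from 0. The TMM factors were 1.13 to 1.21 in fl/fl and 0.802 to 0.984 in HKO livers, and ERCC spike-in RNAs took 1.42% to 1.84% of counts in fl/fl livers and 2.75%, 2.31% and 1.35% in HKO 1, 2 and 3. Without TMM the median log2 fold change of all genes moved by -0.42, and with ERCC scaling by -0.72. Under these scalings the median over the 10 genes was -0.06 and -0.33, 1 and 0 genes were called higher (against 3.35% and 0.665% of all genes, with 2 and 0 of the 10 at an unadjusted p under 0.05), 1 and 0 were called lower (against 30.6% and 17.1% of all genes, with 2 and 1 unadjusted), and the log2 fold change of Pemt with ERCC scaling was -0.01.

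A change of scaling shifts all genes of a library alike, so values relative to the median of all genes are close by construction and test nothing. With TMM and with ERCC scaling, Pcyt2 was 0.86 and 0.83 above that median, Pemt 0.78 and 0.68, Etnk2 0.33 and 0.21, and Chdh 0.12 and 0.20. Below it were Pisd, by -0.11 and -0.056, and Chka, by -0.63 and -0.58.

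**Figure D3:**
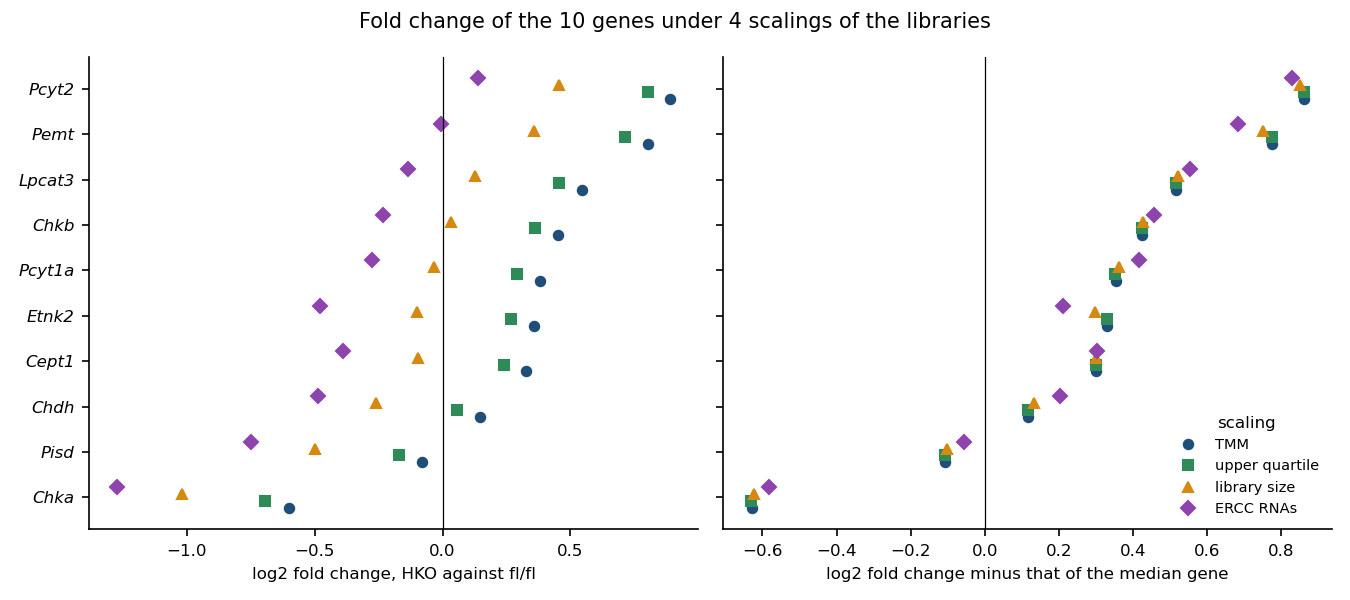
The log2 fold change of each of the 10 genes, HKO against fl/fl, is plotted under TMM, upper quartile, library size (no TMM) and ERCC scaling, as fitted on the left and after subtracting the median of all genes tested under the same scaling on the right. On the left the points of every gene move down together without TMM and with ERCC scaling, and on the right they lie close together, as subtracting the median brings about, with Pcyt2 highest and Chka lowest.

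Markers of other liver cells moved with genotype as well. All 6 cholangiocyte markers were lower in HKO livers, with a summed level of 956 to 1188 CPM in fl/fl and 128 to 246 CPM in HKO livers. Of 8 stellate cell and myofibroblast markers 5 were lower (1266 to 1362 against 293 to 769 CPM), of 7 T and B cell markers 3 were lower (15.1 to 18.7 against 5.24 to 7.30 CPM), and of 8 macrophage markers 3 were lower and 3 higher (492 to 652 against 336 to 387 CPM). Hepatocyte markers summed to 50877 to 62774 CPM in fl/fl and 62199 to 94448 CPM in HKO livers, with 2 of 8 higher, and 4 of 6 pericentral hepatocyte markers were higher (1928 to 3265 against 7246 to 11065 CPM). Endothelial markers were 2 of 6 higher (160 to 185 against 227 to 266 CPM), periportal markers 1 of 6 (4238 to 5688 against 4215 to 6976 CPM), and no marker of any list was at 0 in any liver. Some of these calls depended on the scaling. Without TMM 0 hepatocyte markers were called, endothelial markers were 1 higher and 2 lower, and periportal markers 0 higher and 2 lower. With ERCC scaling 0 hepatocyte and 0 endothelial markers were called, and 1 periportal marker was lower. All 6 cholangiocyte markers stayed lower under both, and pericentral markers were 4 and 3 higher. Over all genes 3.35% and 0.665% were higher, and 30.6% and 17.1% lower, under the same scalings. In bulk tissue, fewer cells of a type and less RNA per cell cannot be told apart, and the part of these shifts in the values of the 10 genes was not tested.

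The other genes of the pathway were taken from lists of enzymes and transporters, chosen by role. Over 73 genes in 8 lists, the 10 included, 72 were tested, 21 were higher and 13 lower. Over all genes tested, 12.5% were higher and 16.5% lower, the shares to set beside every list. The median log2 fold change of the 72 genes was 0.35. It turned to -0.097 without TMM (8 higher, 17 lower) and to -0.38 with ERCC scaling (0 higher, 12 lower). In the lists of the CDP-choline and CDP-ethanolamine pathways, 4 of 10 genes were higher and 2 lower. Beside the genes above, Chpt1, the choline phosphotransferase, went from 126 ± 10.6 to 251 ± 30.1 CPM (SD, n = 3 each, adjusted p = 0.00258), and Selenoi, the ethanolamine phosphotransferase, rose 1.43-fold (adjusted p = 0.0235). Pcyt1b, the minor isoform of the enzyme encoded by Pcyt1a, was low throughout, at 3.28, 4.85 and 3.08 CPM in fl/fl and 1.66, 0.405 and 0.669 CPM in HKO livers, with adjusted p = 0.0166 and a log2 fold change of -2.02. Chpt1 counts per Cept1 count were 3.37, 3.08 and 2.84 in fl/fl and 4.55, 5.21 and 4.94 in HKO livers, a ratio chosen after the values were seen and not tested.

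The list of genes that supply or use SAM holds 8 genes, Pemt included, of which 3 were higher and 0 lower (12.5% and 16.5% of all genes). Without Pemt, 2 of 7 were higher and 0 lower. At an unadjusted p under 0.05 the counts for all 8 were also 3 and 0 in edgeR, in DESeq2 and in limma-voom. Of all 8, the number called higher was 0 without fl/fl 1, fl/fl 3 or HKO 2, 1 without fl/fl 2 and 4 without HKO 3. It was 2 with a replicate block, 1 without TMM and 0 with ERCC scaling. Ahcy, which removes the S-adenosylhomocysteine left by methylation, rose 2.07-fold (1035 ± 252 to 2142 ± 424 CPM, SD, n = 3 each, adjusted p = 0.0154), and Gamt, which uses SAM to make creatine, rose 1.81-fold (adjusted p = 0.0282). Mat1a, Mat2a, Mat2b, Gnmt and Nnmt were not called. The Gamt level of HKO 3 was 148 CPM, against 257 and 296 CPM in HKO 1 and HKO 2.

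Genes of choline transport and oxidation were called in both directions, as were genes at large. Of 14 genes tested 5 were higher and 3 lower (12.5% and 16.5% of all genes), and Slc5a7 was under the filter. The lower genes were the choline transporter-like genes Slc44a2 (44.6 ± 5.31 to 17.4 ± 1.99 CPM, log2 fold change -1.36, adjusted p = 0.00104), Slc44a4 (7.65 ± 2.29 to 0.705 ± 0.290 CPM, -3.41, adjusted p = 0.00111) and Slc44a3 (25.8 ± 5.76 to 14.1 ± 2.64 CPM, -0.87, adjusted p = 0.0152). Dmgdh, the mitochondrial dehydrogenase that acts on dimethylglycine after betaine has given up a methyl group, rose by 1.32 on the log2 scale (194 ± 7.21 to 485 ± 110 CPM, SD, n = 3 each, adjusted p = 0.00261). Aldh7a1, Bhmt and Bhmt2 were also called higher. All 6 cholangiocyte markers, 5 of 8 stellate cell markers and 3 of 7 lymphocyte markers were lower in the same livers as the Slc44a genes, and their part in these values was not tested. Dmgdh counts per Chdh count were 0.978, 1.02 and 1.02 in fl/fl livers and 3.19, 2.51 and 1.43 in HKO livers, again chosen after the values were seen and not tested. Bhmt counts per Chdh count, chosen in the same way, overlapped, at 8.77, 8.63 and 5.93 in fl/fl livers and 21.2, 19.8 and 6.61 in HKO livers.

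On the phosphatidylserine route 1 of 3 genes was higher, Ptdss1, a phosphatidylserine synthase, which rose 1.49-fold (adjusted p = 0.0103). That call was lost under other scalings, with 0 genes of this list higher and 1 lower without TMM, and 0 and 0 with ERCC scaling. In phospholipid remodelling 3 of 14 genes were higher and 4 lower, against 12.5% and 16.5% of all genes. Lpgat1, an acyltransferase, went from 99.0 ± 8.59 to 204 ± 21.4 CPM (SD, n = 3 each, adjusted p = 0.00188), and so moved in the same direction as Lpcat3. Mboat1, Lpcat2, Lpcat1 and Lpcat4, other acyltransferases, had log2 fold changes of -2.94, -1.44, -1.32 and -1.97, in the same order, with adjusted p = 0.00148, 0.00173, 0.00326 and 0.00327. These 4 were all under 20 CPM in every liver, whereas Lpcat3 and Lpgat1 were above 90 CPM in every liver.

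**Figure D4:**
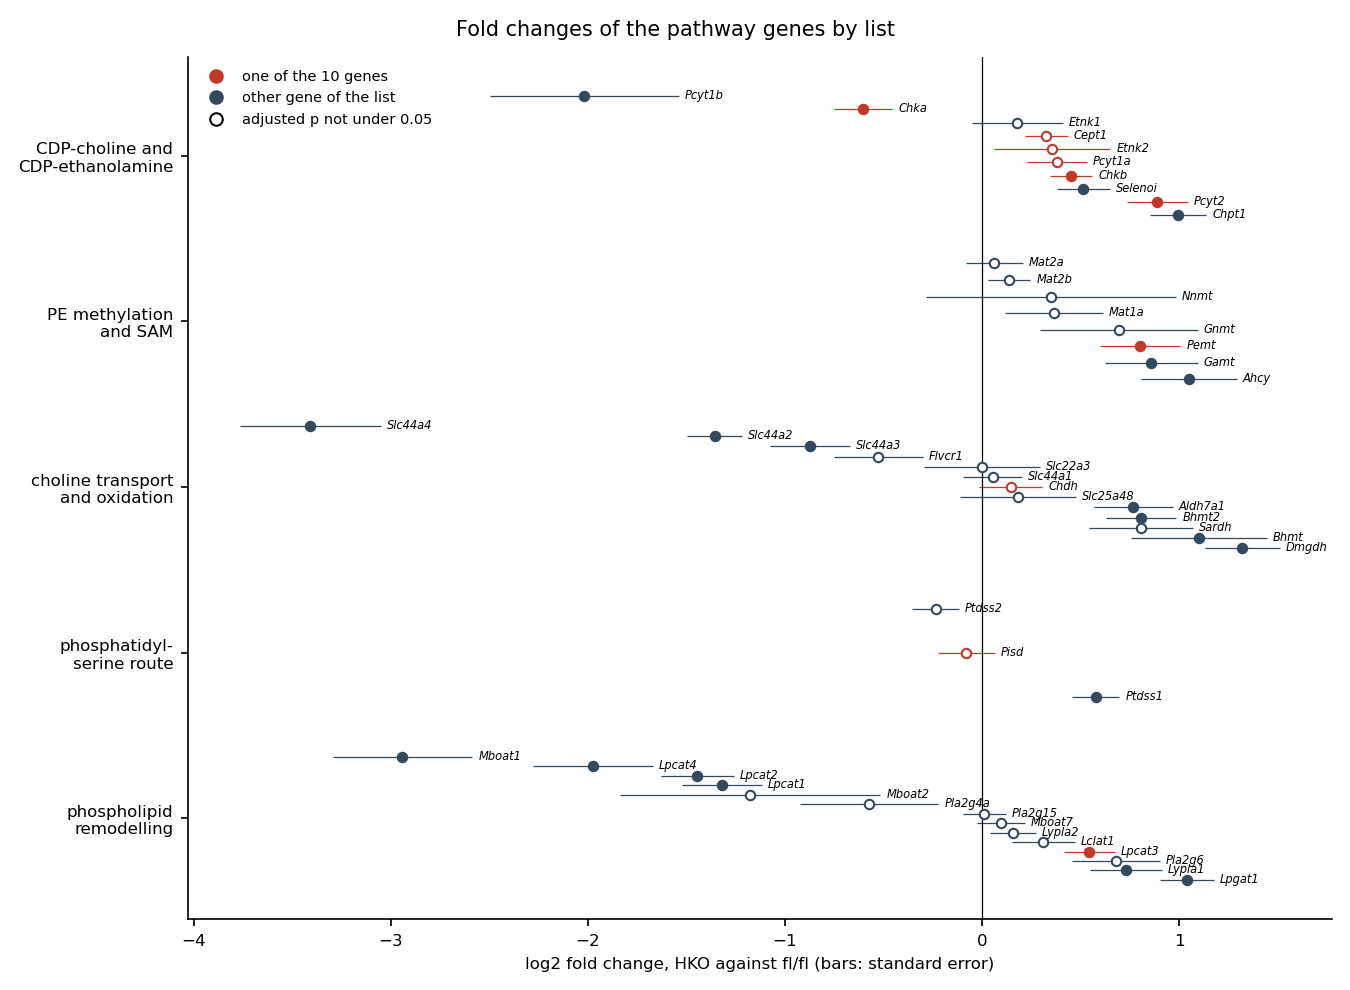
Log2 fold changes of genes of 5 lists, HKO against fl/fl, are plotted with their standard errors, with the 10 genes in red and filled points for an adjusted p under 0.05. Within the list of choline transport and oxidation the Slc44a genes called lie on the lower side and Dmgdh on the higher, and within remodelling Mboat1 and Lpcat4 lie lowest and Lpgat1 highest.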

How the data were processed

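RNA-seq libraries of 6 livers (NEBNext Ultra kit) were analysed here. The authors trimmed the reads (Trimmomatic 0.36), aligned them to GRCm38 with ERCC sequences (STAR 2.5.2b) and counted unique gene hits on an Ensembl annotation (featureCounts of Subread 1.5.2, per the submitters' processing notes). The deposited values are these raw counts, without normalization. Library sizes and tests did not include the 92 ERCC rows. Symbols, positions and lengths came from a GENCODE annotation of GRCm38, in which 259 of the 49671 gene IDs were missing.

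Counts were tested with edgeR 4.0.16 (R 4.3.3; filterByExpr, TMM, robust quasi-likelihood fit on genotype, Benjamini-Hochberg adjustment over 16089 genes, threshold 0.05). Replicates were separate livers, no pair of which agreed within sampling noise. A count of 3 equalled 0.0734 to 0.152 CPM, and the lowest count of any of the 10 genes was 621, far above it. Ratios of counts within a library were compared with exact permutation tests (scipy 1.17.1). DESeq2 1.42.0, limma-voom (limma 3.58.1), other scalings and filters, a replicate block and leaving out each liver served as 15 alternatives. The method was tested on simulated counts in which few genes changed, by large amounts and equally often up and down. Smaller changes and a difference in RNA composition between genotypes were not simulated, so the choice of scaling was not tested.

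Shmt2, the 10 genes, near-identical copies and overlapping neighbours were named, with at most the 4 called genes of smallest adjusted p from each other list, and cell markers as counts and sums only. Slc44a3, Aldh7a1, Bhmt, Bhmt2 and Lpcat4, genes named as not called, and 5 further ratios were chosen after the values were seen. Not every called gene of the lists is named. A gene of the lists that is not reported here was left out of the plot but not of the counts. The 10 genes and the lists were chosen with earlier results of these data known.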

Additional observations from a re-analysis of the deposited data

How the results depend on the processing

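The scaling of the libraries mattered most. Over all genes 2012 were called higher and 2651 lower, against 539 and 4923 without TMM and 107 and 2759 with ERCC scaling. Of the 10 genes, 1 was called higher without TMM, and 0 were called higher and 0 lower with ERCC scaling. In that ERCC fit by edgeR, 0 were higher and 1 lower at an unadjusted p under 0.05. DESeq2 with its own scaling called 5 and 1, and limma-voom, which used the TMM scaling of the main fit, called 4 and 1. Neither was run with ERCC scaling. Of all pathway genes 21 were higher and 13 lower, against 8 and 17 without TMM and 0 and 12 with ERCC scaling. With ERCC scaling 0 were higher at an unadjusted p under 0.05 as well. DESeq2 and limma-voom, with the scalings just named, called 27 and 20 higher. The median log2 fold change of the 10 genes turned to -0.064 without TMM and -0.33 with ERCC scaling. Without TMM, Pcyt1a (-0.033), Cept1 (-0.10), Chdh (-0.26) and Etnk2 (-0.10) turned, and with ERCC scaling Pemt (-0.0081), Chkb (-0.23), Pcyt1a (-0.27), Cept1 (-0.39), Chdh (-0.49), Lpcat3 (-0.14) and Etnk2 (-0.48) did, since these factors shift every gene alike.

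Leaving out 1 liver at a time gave 805 to 2521 genes higher (at least 4.93% of those tested) and 1621 to 3076 lower (at least 9.92%), 1 to 5 of the 10 genes higher and 0 to 1 lower, and 8 to 26 pathway genes higher. Of the 10 genes 1 was higher without HKO 2, fl/fl 2 or fl/fl 3 and 2 without fl/fl 1, and 0 were lower without fl/fl 1 or fl/fl 3. The fold change of Chdh ran from -0.0070 (without HKO 3) to 0.29, that of Pisd from -0.17 to 0.052 (without HKO 1) and that of Etnk2 from 0.025 (without HKO 2) to 0.58 (without HKO 3). The rank of Chka by level was 8 without length scaling and 9 with the longest transcript.

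Of 150 fold changes of the 10 genes under alternatives, 117 kept direction and side of the threshold, 18 lost the call, 2 gained it and 13 turned. The 117 include fits of the 5 genes not called in the main fit, where keeping the side means staying uncalled. No gene of the 10 was called in all 15 alternatives. Same-numbered livers did not visibly deviate together (correlations -0.05, 0.01 and -0.08, and 1 of 6 livers correlated best with its own number). With so few livers this cannot exclude that equal numbers shared a litter or a processing step. With the replicate block, 1397 genes were called higher and 2187 lower, and the 5 calls among the 10 genes held, the weakest of them Chkb, just under the threshold.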

Other observations

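Genes that break down phosphatidylcholine or turn it into sphingomyelin were called in both directions, as were genes at large. Over all genes tested, to set beside this list and those below, 12.5% were called higher and 16.5% lower. Of 13 tested, 2 were higher and 4 lower in HKO livers by edgeR's quasi-likelihood test. Pnpla7, a lysophospholipase, went from 147 ± 15.6 to 284 ± 56.2 CPM (SD, n = 3 each, adjusted p = 0.00681). The phospholipase D genes Pld1 and Pld2, whose products release choline from phosphatidylcholine, and Pld3, a nuclease named for its likeness to them, had log2 fold changes of -1.36, -0.87 and -0.53 (adjusted p = 0.00148, 0.00397 and 0.0244). Cholangiocyte, stellate and lymphocyte markers were lower in the same livers, and their part in these values was not tested.

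Of 7 genes for transport and secretion of phosphatidylcholine, 3 were higher and 0 lower (5 and 0 at an unadjusted p under 0.05; DESeq2 called 6 and 0 and limma-voom 3 and 0). Mttp, which loads lipid onto apolipoprotein B, rose 2.06-fold (159 ± 7.32 to 326 ± 42.2 CPM, SD, n = 3 each, adjusted p = 0.00231). Stard10 and Stard7, lipid transfer proteins, had log2 fold changes of 0.68 (adjusted p = 0.0286) and 0.45 (adjusted p = 0.0269). Of these 3, Mttp alone stayed called without TMM, and none with ERCC scaling.

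Among 3 phosphatidate phosphatases, which make diacylglycerol, edgeR called 0 higher and 0 lower (0 and 1 at an unadjusted p under 0.05; DESeq2 and limma-voom each called 0 higher and 1 lower). Lpin1, chosen after its values were seen, was at 389 CPM in HKO 3 against 102 and 117 CPM in HKO 1 and HKO 2 and 68.7, 172 and 76.5 CPM in fl/fl livers.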
